A study of Mus musculus with 6 samples.

Results

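The mammalian circadian clock is a transcriptional feedback loop. BMAL1 (encoded by Arntl) pairs with CLOCK, or with its close relative NPAS2, and the pair binds E-box sequences and activates the Per and Cry genes, whose PER and CRY proteins return to the nucleus and repress that activity. REV-ERB alpha (Nr1d1) closes a second loop by repressing Arntl, and DBP, a bZIP activator, carries the rhythm to output genes through D-box sequences. In the kidney this loop is known for rhythms in sodium and water handling along the nephron, the proximal tubule included, and Per1 and Per2 also respond to glucocorticoids and to cAMP signalling.

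Open chromatin was examined at these 10 genes (Arntl, Clock, Npas2, Per1, Per2, Per3, Cry1, Cry2, Nr1d1 and Dbp) in 6 ATAC-seq libraries. In this assay a transposase cuts accessible DNA and inserts sequencing adapters, so that dense insertions form peaks. Each library was made from 3 hand-dissected S1 proximal tubules, the first stretch of the tubule after the glomerulus, of wild-type (WT) male C57BL/6 mice from Taconic aged 7 weeks and kept under 12 h of light and 12 h of dark. The comparison asked how accessibility changed after the loss of 1 kidney: 3 libraries came from mice 24 h after a sham operation (Sham) and 3 from mice 24 h after surgical unilateral nephrectomy (UNx). The clock time of operation and of tissue collection is not given in the sources used here, nor whether each library came from its own mouse, so the p-values measure the spread between libraries, part of which may be technical. For a gene set that cycles over the day, a difference in collection time between the groups and an effect of the operation cannot be told apart.

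A peak was assigned to a clock gene when its summit lay in the gene body or within 20 kb of it. To set lists of different length side by side, the 77355 strongest intervals of each list were ranked by the authors' −log10 q, and each received a percentile rank, with values near 100 for the strongest peaks of its list and 0 for a region not among them. A percentile rank is a place within a list, not an amount of open chromatin, and in 3 tubules fewer open cells and less opening per cell cannot be told apart. Intervals merged over the 6 lists gave 119 clock gene regions of 99359 regions in all. Of these, 14 were promoter regions (summit within 1 kb of a start of the gene), 14 were promoter regions of neighbouring genes inside the same windows, and 91 were distal. Of the clock regions, 100 occurred in 3 or more lists and entered the test with all 74781 such regions of the genome (13 promoter, 13 neighbour and 74 distal clock regions). The other 19 were found in 1 list (13 regions) or 2 lists (6 regions) and were not tested.

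The deposited lists held from 77355 intervals (Sham 2) to 100999 (UNx 2), with a median −log10 q from 12.1 in Sham 2 to 26.5 in UNx 3. The number of reads is unknown, since peak lists hold none. The tissue label was checked at promoters. All 8 S1 markers, among them Slc5a2 and Slc34a1, had a promoter region in all 6 lists, with a mean rank over the list of 89.1 to 92.0 in the Sham libraries and 89.2 to 90.2 in the UNx libraries. Of these 8 markers, 2 were wholly lower in UNx and 0 wholly higher. Among all tested promoter regions 20.8% were without overlap in either direction, so this count stood near that share. The lower ones were Lrp2 (96.2 ± 0.627 to 92.8 ± 1.53) and Cubn (90.8 ± 3.64 to 84.2 ± 4.46, SD, n = 3 each). A higher UNx mean was found for 4 of the 8. Markers of the S2 and S3 segments had list means of 38.8 to 50.4 in Sham and 33 to 34.4 in UNx libraries (4 of 5 tested, Slc7a13 in no list). Markers of other nephron segments had list means of 38.3 to 41.5 and 33.9 to 37.5 (4 of 7 tested, Slc12a3, Aqp2 and Atp6v1g3 in no list), and those of non-epithelial cells 12.5 to 14.6 and 7.0 to 12.6 (4 of 9 tested, Ptprc, Cd68 and Pdgfrb in no list). In these list means a gene in no list counts as 0. The 4 tested markers of other segments themselves stood higher, with Sham means of 93.0 for Scnn1g, 65.4 for Umod, 65.1 for Calb1 and 56.9 for Slc12a1. Scnn1g was thus as high as the S1 markers. The list means of the S2 and S3 markers and of the other segments were thus lower in every UNx library than in every Sham library. Single markers went both ways: Slc7a12, Slc22a7, Slc12a1 and Scnn1g were wholly lower, the S2 and S3 marker Aadat was wholly higher (92.4 ± 2.25 to 97.3 ± 0.496, SD, n = 3 each), and Umod and Calb1 were higher in mean with overlap. In the non-epithelial list Col1a1 and Flt1 were wholly lower, Flt1 being in Sham lists alone, and Nphs1 was higher in mean with overlap. Groups did not overlap for 3 of the 4 tested S2 and S3 markers. The same held for 2 of 4 tested markers of other segments and 2 of 4 of non-epithelial cells, beside 20.8% of all tested promoter regions. The part of all these markers in the clock gene values was not tested.

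No clock gene region passed the test after UNx. With limma and Benjamini-Hochberg adjustment over the genome, 0 of the 100 tested clock regions had an adjusted p under 0.05, against 589 of all 74781 tested regions (0.788%), and the smallest adjusted p was 0.0800. At an unadjusted p under 0.05 there were 13 clock regions, 9 higher and 4 lower in UNx, against 18.6% of all tested regions. The 3 UNx ranks lay wholly above or below the 3 Sham ranks in 19 of 100 clock regions, against 23.7% of all tested regions. Of these 13 were higher in UNx (12% of all tested regions) and 6 were lower (11.7%). The split depended on the ranking: with all deposited peaks 23 regions were wholly higher and 3 wholly lower (24.5% of 106 tested clock regions, against 21.5% of all tested regions), and with ranks by fold enrichment 8 were higher and 8 lower (18.8% against 19.9%).

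**Figure D1:**
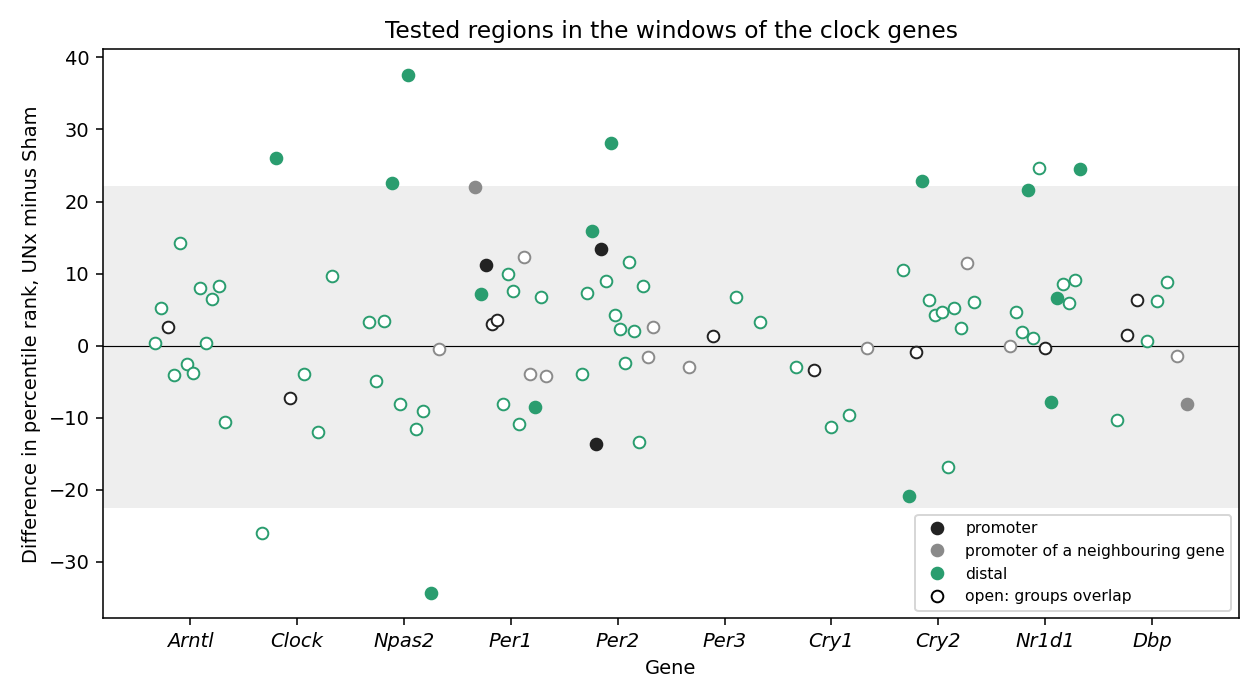
Difference in percentile rank, UNx mean minus Sham mean (vertical axis, percentile points), of each of the 100 tested regions, grouped by clock gene and placed by position along the gene; filled points are the 19 regions whose groups did not overlap, and the grey band spans the 5th to 95th percentile of all tested regions (−22.3 to 22.1). The points at Npas2 reach from −34.3 to 37.5, while those at Arntl, Per1, Per3, Cry1 and Dbp stay inside the band, Per1 only just.

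Higher UNx means outnumbered lower ones among distal regions and, by few regions, among promoter regions. The median difference (UNx minus Sham) was 4.28 percentile points over the 74 distal clock regions, against −0.0254 over all tested distal regions. Of the 74, 49 were higher in UNx, beside 49.9% of all tested distal regions. It was 1.49 over the 13 promoter regions, 8 of them higher, against 0.00366 over all tested promoter regions, and −0.502 over the 13 neighbour regions. These medians describe ranks by −log10 q: ranked by fold enrichment, the same medians were −1.29 for distal and −2.87 for promoter regions.

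Clock regions were present more often in the UNx lists. Of the 119 clock regions, 94, 92 and 98 were present in Sham libraries 1, 2 and 3, and 99, 103 and 104 in UNx libraries 1, 2 and 3. The groups did not overlap, with means of 94.7 ± 3.06 and 102 ± 2.65 (SD, n = 3 each) and a two-sided exact permutation p of 0.1, the smallest that 3 libraries against 3 can give. Distal regions made up most of the gap, with 69, 67 and 72 in Sham and 72, 77 and 77 in UNx libraries (exact p = 0.2). Over all merged regions the means were 72733 and 73618 per list. Ranking by fold enrichment, which keeps other intervals, gave a difference in clock regions per list of −0.333 in place of 7.33. In all, 81 of the 119 clock regions were in all 6 lists.

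All members but Npas2 had a promoter region in all 6 lists. By mean rank over the 6 libraries the order of the strongest promoter region of each gene was Per3 (95.4), Cry2 (94.9), Arntl (89.4), Cry1 (89.4), Per1 (87.3), Per2 (77.7), Clock (75.6), Nr1d1 (75.4) and Dbp (67.0). Per3 thus ranked above 82.3% of the 14008 tested promoter regions of the genome, and Dbp above 31.4%. Of the neighbours in this order only Cry2 and Arntl were separated in 6 of 6 libraries, and Per1 ranked above Per2 in 5 of 6. The other neighbouring pairs changed places between libraries. Npas2 had no region whose strongest summit lay within 1 kb of the start of its basic transcript, although an interval led by a summit further upstream spanned that start.

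**Figure D2:**
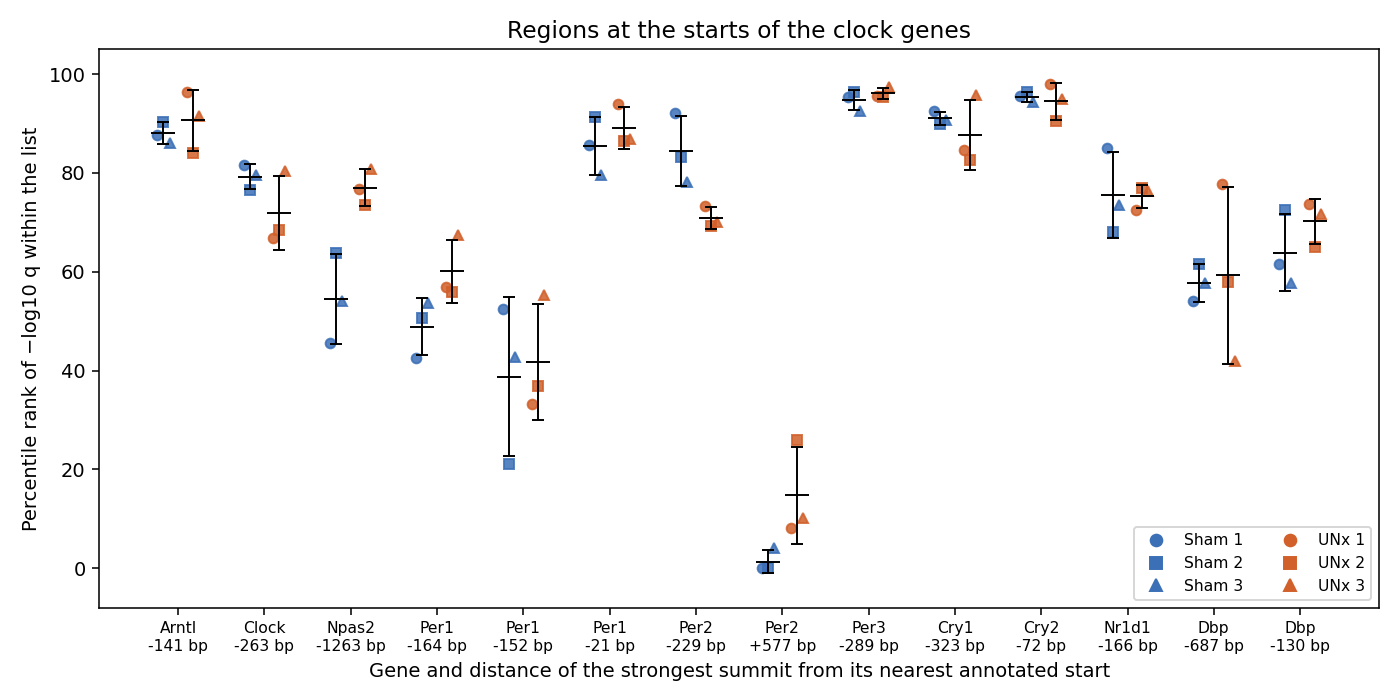
Percentile rank of −log10 q (vertical axis, 0 to 100) of the 13 tested promoter regions and of the region over the Npas2 start, for each library (3 Sham libraries in blue, 3 UNx libraries in orange); horizontal lines are group means and bars are SD (n = 3). The UNx points of Per2 at 229 bp before the start (69.3 to 73.4) lie below its Sham points (78.2 to 92.2), and those of Npas2 (73.5 to 80.8) lie above its Sham points (45.5 to 63.8).

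Among the activators, the Arntl promoter region ranked above most promoter regions of the genome and that of Clock below most (64.6% and 39.8% of them ranked lower). The Arntl promoter region (chr7:113206690-113208402, build GRCm38 throughout, summit 141 bp before the start) ranked 87.7, 90.4 and 86.1 in Sham and 96.3, 84.1 and 91.6 in UNx libraries. The groups overlapped. Means were 88.1 ± 2.18 and 90.7 ± 6.15 (SD, n = 3 each), a difference of 2.61 with an SE of 2.75 (limma adjusted p = 0.650). The Clock promoter region (chr5:76303547-76305386) ranked 81.5, 76.6 and 79.6 in Sham and 66.8, 68.5 and 80.4 in UNx libraries, with 1 UNx library as high as the Sham ones and a limma adjusted p of 0.425. Its strongest summit lay from 274 to 21 bp before the start in 5 libraries and 571 bp after it in UNx 3, so that library was read at another summit of the same interval.

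An intron of Arntl held the strongest distal region of all 10 genes. That region (chr7:113260001-113261046), 26 kb from the nearest annotated Arntl start, ranked 97.5, 97.4 and 98.3 in Sham and 98.5, 98.3 and 97.2 in UNx libraries. It was near the top of every list, and the groups differed by less than their spread, with a difference of 0.30 (SE 1.28, limma adjusted p = 0.930). The largest difference at Arntl was in another intron (chr7:113241832-113243190), at 55.2, 41.0 and 65.0 in Sham and 70.9, 68.4 and 64.6 in UNx libraries. There 1 UNx library fell within the Sham values, and the difference of 14.2 (7.85 without Sham 2) gave a limma adjusted p of 0.290. None of the 12 tested Arntl regions had groups that did not overlap.

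Upstream of Clock, the gene for the histone acetyltransferase partner of BMAL1, a narrow region appeared in the UNx lists alone. It lay 1.03 kb before the start (chr5:76305696-76305940, 245 bp, intergenic) and was in 0 Sham lists, also among all deposited intervals, and in 3 UNx lists at ranks of 13.5, 34.9 and 29.7. The authors' fold enrichment there was 3.02, 4.07 and 3.17. The mean difference was 26.1 (SE 9.08, limma adjusted p = 0.141). The region met the filter of 3 lists only through the UNx lists, where it was high, so this p gives no separate support. Regions found in all 3 UNx lists and no Sham list made up 1.04% of the 99359 merged regions, and the opposite pattern 0.934%, so 2 of 119 clock regions of the first kind and 0 of the second stood near that background. The second such region lay 10.4 kb from the Nr1d1 start in a UTR of the neighbouring gene Thra (chr11:98764812-98765069), at UNx ranks of 15.7, 3.23 and 0.891, close to the bottom of the shortened lists. Both such regions count among the 13 clock regions wholly higher in UNx, and both entered the test through the UNx lists alone. The 201 bp around the summit upstream of Clock are given on the strand of the gene because presence differed fully between the groups there. They held none of the 6 motifs searched.
Clock upstream (chr5:76305725-76305925, minus strand): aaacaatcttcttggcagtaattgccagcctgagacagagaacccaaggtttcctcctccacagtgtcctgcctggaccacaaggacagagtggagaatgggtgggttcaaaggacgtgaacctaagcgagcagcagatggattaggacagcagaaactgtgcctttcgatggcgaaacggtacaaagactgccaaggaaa

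The motifs were searched on both strands within 100 bp of the region's strongest summit: the E-box CACGTG, the E-prime box CACGTT, the D-box as TTATGTAA or TTACGTAA, the CRE TGACGTCA, the ROR/REV-ERB element and the glucocorticoid receptor element. The E-box and the E-prime box differ in their last base and so cannot match at the same position. An E-box was found in 8 of the 100 tested clock windows (8%), against 4.76% of all tested windows. An E-prime box was found in 2% against 2.90%, a D-box in 2% against 0.928%, a CRE in 2% against 0.683%, the ROR/REV-ERB element in 1% against 0.233% and the glucocorticoid receptor element in 1% against 0.516%. A match describes letters and does not show that a factor was bound.

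A further Clock intron region (chr5:76280697-76281193) stood at 41.2, 51.7 and 39.7 in Sham and 4.79, 40.8 and 9.23 in UNx libraries. UNx 2 lay among the Sham values and the other UNx libraries near the bottom, and the difference was −26.0 (limma adjusted p = 0.233). The strongest distal Clock region (chr5:76289303-76290054), also intronic, ranked 83.5 ± 5.24 in Sham and 79.6 ± 5.69 after UNx (SD, n = 3 each).

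Npas2 showed the widest spread of differences of the 10 genes, in both directions. The merged region over its start (chr1:39192320-39194896, 2577 bp) ranked 45.5, 63.8 and 54.1 in Sham and 76.8, 73.5 and 80.8 in UNx libraries. Every UNx library was above every Sham library. Means were 54.5 ± 9.16 and 77.0 ± 3.69 (SD, n = 3 each), a difference of 22.6 with an SE of 6.18 and a limma adjusted p of 0.0800, the smallest among the clock regions. Its strongest summit lay 1263 bp before the start of the basic transcript and 782 bp before the 5′ end of the gene as GENCODE records it, so the region counts as distal by the first and as promoter by the second.

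Single summits separated that interval into parts that differed in opposite directions. These were ranked among the 105829 strongest summits of each list, a step added after the values were seen. Between 1.4 and 1.1 kb before the start the strongest summit ranked 49.6, 68.2 and 57.9 in Sham and 80.2, 77.0 and 83.7 in UNx libraries, 58.6 ± 9.34 against 80.3 ± 3.34 (SD, n = 3 each). Within 1 kb of the start it ranked 44.2, 53.9 and 51.8 in Sham and 23.3, 43.9 and 41.0 in UNx libraries, 49.9 ± 5.09 against 36.1 ± 11.2. The upstream summit was higher and the start summit lower in all 3 UNx libraries, the second by a narrow margin between Sham 1 and UNx 2. Each exact permutation p was 0.1, the value that any full separation of 3 libraries against 3 gives. As the upstream window was set after the values were seen, this p gives no separate support. When merging asked for an overlap of 50%, the piece at the start stood alone and differed by −4.38 (limma adjusted p = 0.943). The upstream window is given because it carried the smallest adjusted p of the clock regions, and the window 147 kb into the gene because it held an E-box (capitals) and the lowest difference of the clock regions.
Npas2 upstream (chr1:39192849-39193049, plus strand): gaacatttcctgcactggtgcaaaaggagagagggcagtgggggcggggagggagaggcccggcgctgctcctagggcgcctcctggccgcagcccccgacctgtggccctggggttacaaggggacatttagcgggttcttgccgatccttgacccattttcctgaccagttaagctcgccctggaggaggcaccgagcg
Npas2 intron (chr1:39340765-39340965, plus strand): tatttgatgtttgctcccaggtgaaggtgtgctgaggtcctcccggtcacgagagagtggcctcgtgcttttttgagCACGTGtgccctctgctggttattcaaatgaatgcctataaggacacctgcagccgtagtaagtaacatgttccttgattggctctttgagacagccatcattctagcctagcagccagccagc

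**Figure D3:**
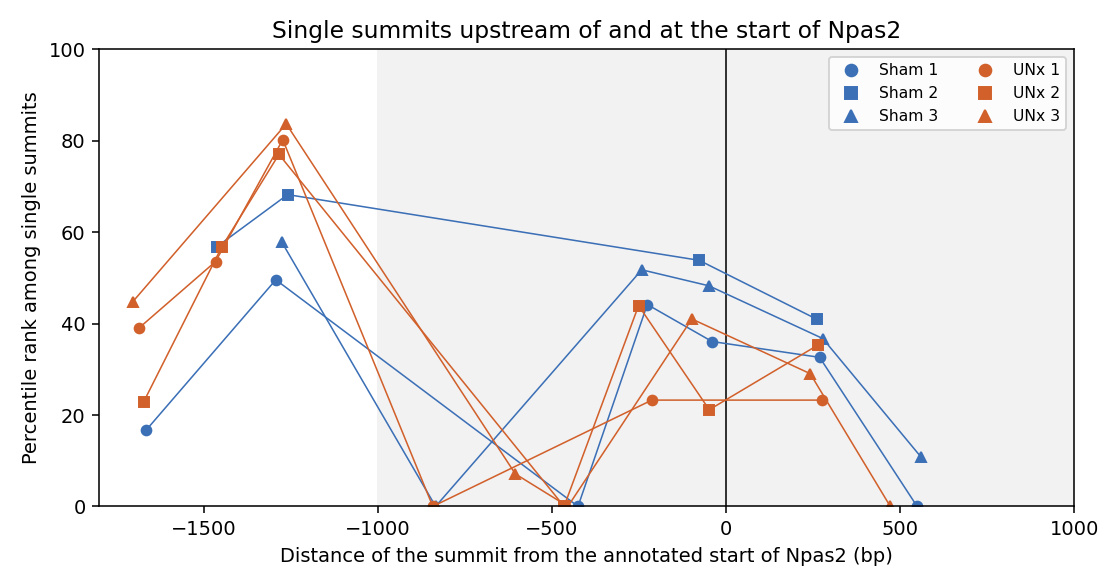
Percentile rank of each single summit among the summits of its list (vertical axis, 0 to 100) against its distance from the annotated Npas2 start in bp, with a line joining the summits of each library; grey shading marks 1 kb on either side of the start. Near −1.3 kb the UNx libraries (77.0 to 83.7) lie above the Sham libraries (49.6 to 68.2), and at the start they reach 23.3 to 43.9 against 44.2 to 53.9.

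That intron region of Npas2 (chr1:39340691-39341044) ranked 55.9, 57 and 71.3 in Sham and 11.1, 31.4 and 38.8 in UNx libraries. It was lower in all 3 UNx libraries, by 34.3 percentile points (difference −34.3, SE 9.58, limma adjusted p = 0.0844). Another Npas2 intron region, 43.5 kb into the gene (chr1:39237335-39237903), ranked 0.842, 0 and 16.6 in Sham and 44.8, 58.9 and 26.3 in UNx libraries. This was the highest difference at any clock gene, 37.5 with an SE of 11.5, and it too missed the threshold (limma adjusted p = 0.104). The other tested distal Npas2 regions differed less: 3 upstream regions between 7.35 and 17.4 kb before the start differed by −4.90 to 3.36, and 3 weaker intron regions by −11.6 to −8.16. Of the 28 tested regions of the 3 activators, 3 were wholly higher and 1 wholly lower in UNx, 4 in all beside 23.7% of all tested regions.

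**Figure D4:**
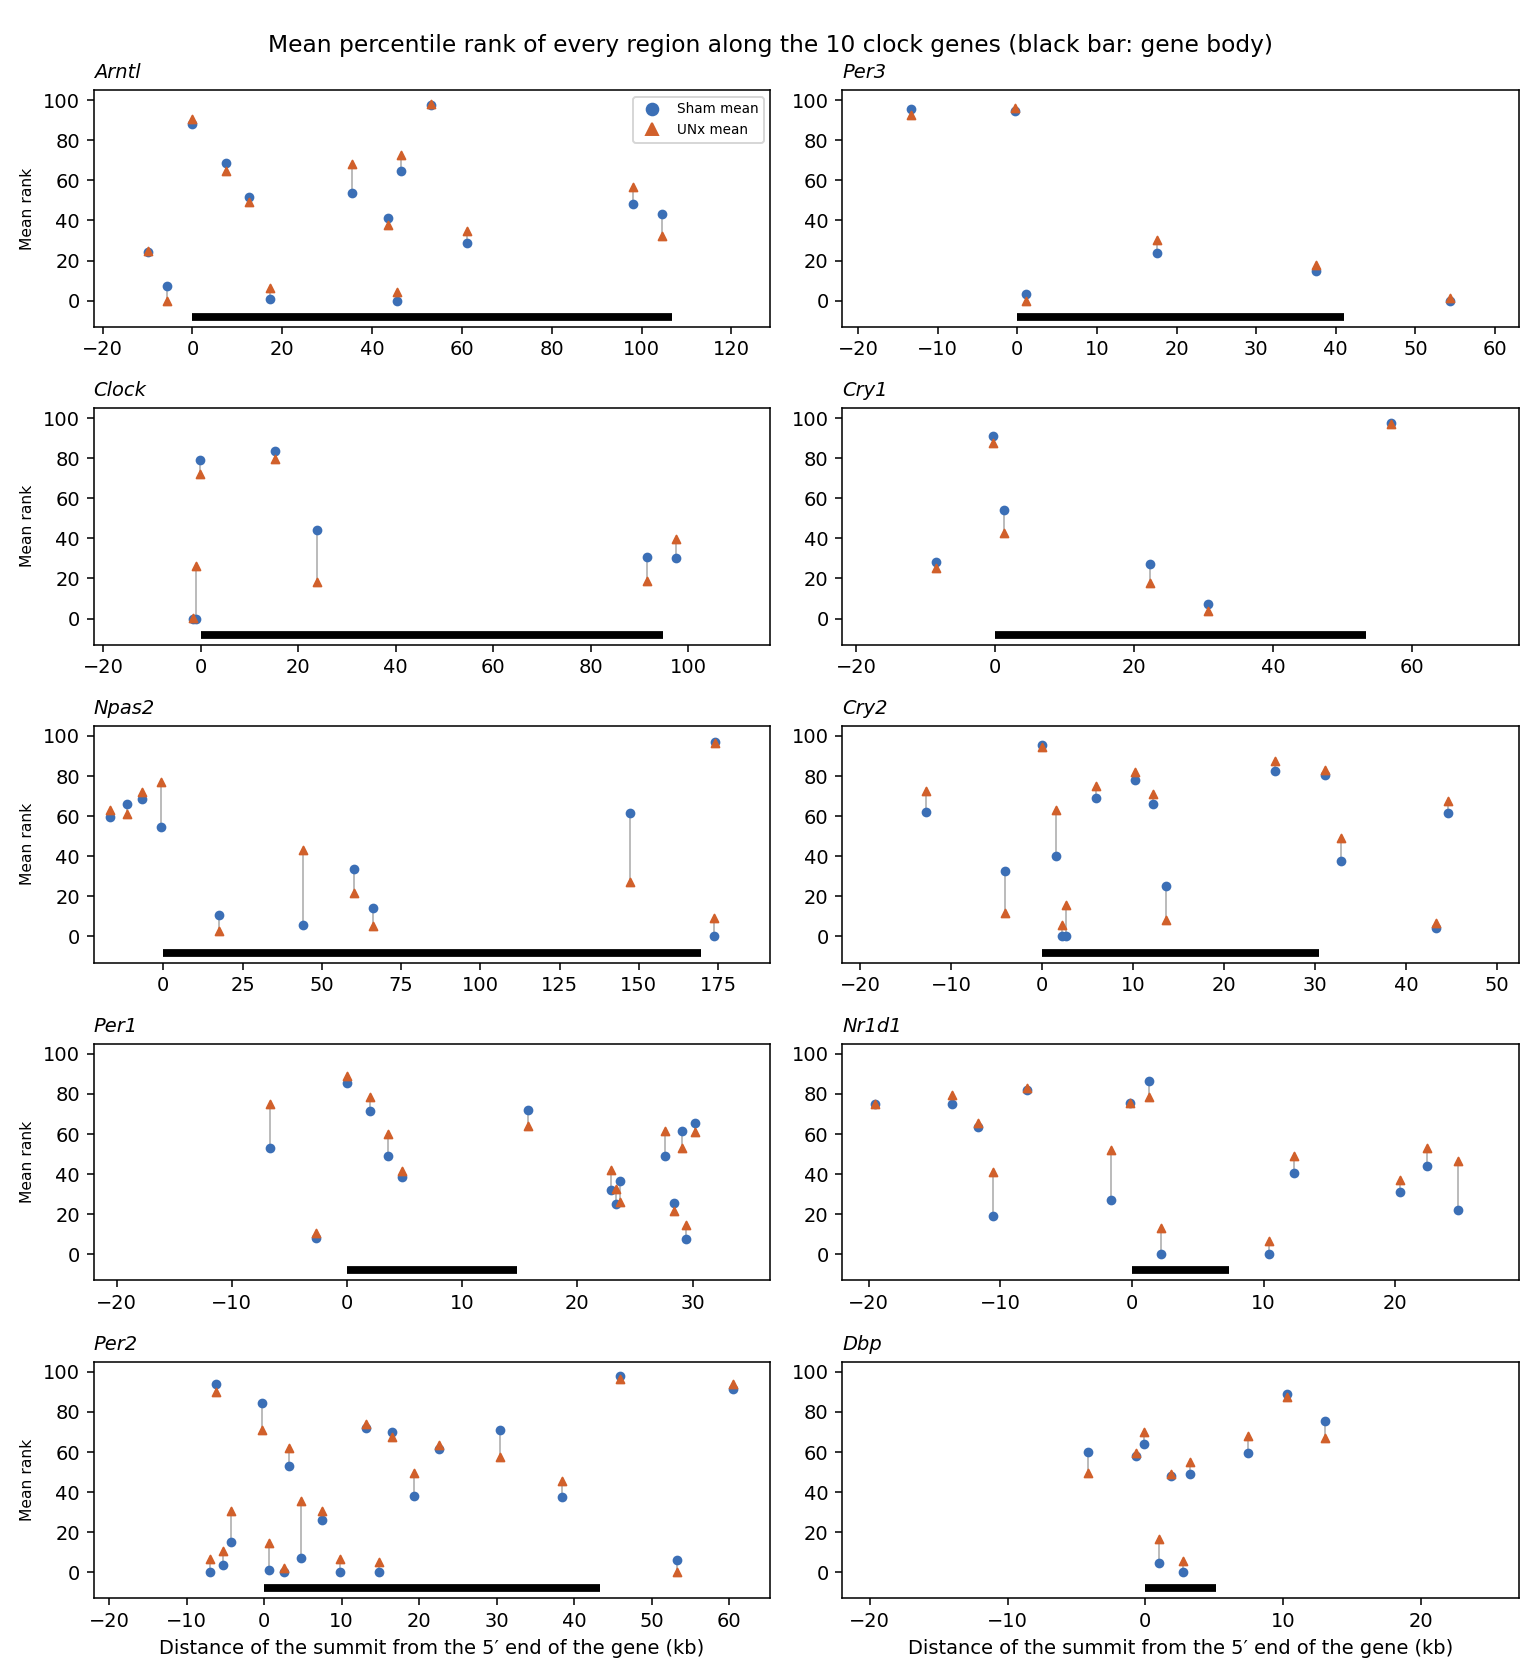
Mean percentile rank (vertical axis, 0 to 100) of all 119 regions against the distance of the summit from the 5′ end of the gene in kb, 1 panel per clock gene, with Sham means (n = 3) as blue circles, UNx means (n = 3) as orange triangles, a grey line joining the pair and a black bar for the gene body. Paired symbols nearly coincide at the strongest regions, such as 97.7 and 98.0 at the Arntl intron, and stand furthest apart at weaker ones, such as 5.81 and 43.3 in the Npas2 intron.

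The period genes encode repressors that accumulate rhythmically and feed back on the activators. Among the promoter regions of the clock genes, that of Per2 gave the lowest difference. The region (chr1:91459001-91459871, summit 229 bp before the start) ranked 92.2, 83.2 and 78.2 in Sham and 73.4, 69.3 and 70.0 in UNx libraries. All UNx libraries were below all Sham libraries. Means were 84.5 ± 7.11 and 70.9 ± 2.18 (SD, n = 3 each), a difference of −13.6 with an SE of 4.42, an unadjusted p of 0.00644 and a limma adjusted p of 0.121. Without Sham 1, its highest library, the difference was −9.77 (limma adjusted p = 0.399), and ranked by fold enrichment it was −23.2. The authors' fold enrichment at the summit was 6.39, 4.76 and 4.48 in Sham and 4.08, 3.97 and 3.66 in UNx libraries, also without overlap. A second, weak promoter region in an intron of Per2 (chr1:91458656-91458867, summit 577 bp after the start) had ranks of 0, 0 and 4.05 in Sham and 8.14, 26.0 and 10.2 in UNx libraries, a difference of 13.4 in the other direction (limma adjusted p = 0.378, and 7.82 without UNx 2).

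The promoter regions whose 6 ranks were nearest to those of the Per2 promoter, by Euclidean distance over the 6 libraries among 14008 tested promoter regions, were those of Rnf219 (distance 8.19), Trip12 (9.55) and Pxn (9.56). The Per2 window is given since it was the lowest promoter difference. It held none of the 6 motifs as spelled above.
Per2 promoter (chr1:91459453-91459653, minus strand): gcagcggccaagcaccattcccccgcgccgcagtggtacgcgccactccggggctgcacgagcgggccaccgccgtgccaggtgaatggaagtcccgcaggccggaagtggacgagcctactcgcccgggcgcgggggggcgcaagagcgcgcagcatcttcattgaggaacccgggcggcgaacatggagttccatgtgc

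The other Per2 regions differed in both directions. An intron region 4.77 kb into the gene (chr1:91454387-91454825) ranked 0, 10.7 and 11.2 in Sham and 43.6, 25.9 and 36.8 in UNx libraries. Every UNx library was higher, by 28.2 percentile points on average (SE 10.6, limma adjusted p = 0.168). An intergenic region 4.25 kb before the start was also wholly higher, at 14.9 ± 7.31 in Sham and 30.8 ± 7.04 after UNx (SD of 3 libraries, adjusted p of 0.442 with limma). The strongest distal region, 6.19 kb before the start (chr1:91465135-91465941), ranked 94.7, 95 and 91.5 in Sham and 92.1, 94.8 and 82.5 in UNx libraries, with overlap. An intron region 30.5 kb into the gene (chr1:91428649-91429195) was lower in mean by about as much as the promoter, at 71.1 ± 9.19 in Sham and 57.7 ± 11.2 after UNx (SD of 3 libraries, adjusted p of 0.311 with limma), and overlapped. In all, 11 of the 16 tested Per2 regions had a higher UNx mean and 5 a lower one, beside 49.9% of all tested regions with a higher one.

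Per1, an immediate responder to glucocorticoid and cAMP signals, has several annotated starts and had 3 promoter regions. The strongest (chr11:69094673-69095372, summit 21 bp before the first start) ranked 85.6, 91.4 and 79.5 in Sham and 93.9, 86.5 and 86.9 in UNx libraries. These overlapped (difference 3.61, limma adjusted p = 0.562). At a second start (chr11:69098646-69099229, within an intron of longer transcripts) the ranks were 42.5, 50.6 and 53.6 in Sham and 56.8, 55.9 and 67.4 in UNx libraries. Here every UNx library was higher, with means of 48.9 ± 5.75 and 60.1 ± 6.40 (SD, n = 3 each) and an adjusted p of 0.437 with limma, while ranking by fold enrichment turned the difference from 11.2 to −0.55. The third promoter region (chr11:69099870-69100212) overlapped, at 38.8 ± 16.1 and 41.8 ± 11.8. The window of the second start is given because its centre held an E-box (capitals).
Per1 second start (chr11:69098684-69098884, plus strand): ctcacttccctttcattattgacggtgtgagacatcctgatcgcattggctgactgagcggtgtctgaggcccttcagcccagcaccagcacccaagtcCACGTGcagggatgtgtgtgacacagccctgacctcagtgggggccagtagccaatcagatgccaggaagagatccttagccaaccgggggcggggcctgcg

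Around Per1 the strongest distal region, 1.75 kb before the nearest start (chr11:69096678-69097350), held a CRE within 100 bp of its summit. It ranked 67.9, 69.3 and 77.2 in Sham and 77.4, 79.0 and 79.4 in UNx libraries, just without overlap (difference 7.14, limma adjusted p = 0.416, and 1.15 when ranked by fold enrichment). A region 23.7 kb beyond the start was wholly lower, at 61.6 ± 3.89 in Sham and 53.2 ± 3.58 after UNx (SD of 3 libraries, adjusted p of 0.535 with limma). The largest distal difference at Per1 was −10.8, with overlap (−3.33 without Sham 3). The largest in the whole Per1 window belonged to the promoter of Vamp2, a gene for a vesicle fusion protein (chr11:69088059-69089303), at 44.9, 56.4 and 57.7 in Sham and 79.1, 71.2 and 74.8 in UNx libraries. All UNx libraries were higher, by 22.0 percentile points (SE 6.19, limma adjusted p = 0.0849).

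Per3, the least essential of the period genes for rhythm, had the promoter region of highest mean rank, although it ranked above that of Cry2 in only 2 of 6 libraries. It ranked 95.4, 96.3 and 92.5 in Sham and 95.6, 95.4 and 97.4 in UNx libraries (chr4:151044022-151045487, difference 1.39, limma adjusted p = 0.681). In contrast its distal regions were weak, with the strongest (chr4:151027057-151027448) at 23.6 ± 20.8 in Sham and 30.4 ± 8.40 after UNx (SD, n = 3 each). In Sham 1 the region was deposited but lay outside the 77355 strongest intervals, and the difference of 6.75 was −5.07 without that library. Of the 34 tested regions in the windows of the 3 period genes, 6 were wholly higher and 2 wholly lower in UNx, 8 in all beside 23.7% of all tested regions.

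Sequences just before the start were taken from RefSeq (build GRCm38). There 9 of the 10 genes, all but Per2, had a promoter entry of 250 bases before to 50 after the start. The Per3 entry held D-boxes 205 and 158 bp before the start, and the Cry1 entry held an E-box 60 bp and an E-prime box 79 bp before it. Of all 32851 RefSeq promoters of this length, 7.15% held an E-box, 4.68% an E-prime box and 1.06% a D-box. An E-box lay 166 bp before a Per1 start, an E-prime box 166 bp before the Cry2 start and 28 bp before the Nr1d1 start, and a ROR/REV-ERB element 27 bp after an Arntl start, an element held by 0.219% of all promoters. The Per3 and Cry1 stretches are given with these motifs in capitals because both genes kept high promoter ranks in both groups.
Per3 promoter (chr4:151044666-151044915, minus strand): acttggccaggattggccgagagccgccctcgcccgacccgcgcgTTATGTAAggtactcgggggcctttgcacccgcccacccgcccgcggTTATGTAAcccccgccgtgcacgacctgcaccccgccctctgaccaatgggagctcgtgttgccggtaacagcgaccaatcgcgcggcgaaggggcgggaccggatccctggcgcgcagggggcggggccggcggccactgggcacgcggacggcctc
Cry1 promoter (chr10:85185065-85185304, minus strand): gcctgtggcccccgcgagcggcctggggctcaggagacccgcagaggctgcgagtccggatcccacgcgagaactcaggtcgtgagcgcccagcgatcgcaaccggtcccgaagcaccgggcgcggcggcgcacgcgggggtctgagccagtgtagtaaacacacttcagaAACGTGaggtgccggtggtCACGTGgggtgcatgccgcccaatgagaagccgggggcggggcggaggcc

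The cryptochrome genes, whose products are the main direct repressors of CLOCK and BMAL1, kept strong promoters. The Cry1 promoter region (chr10:85184309-85185769) ranked 92.4, 89.9 and 90.8 in Sham and 84.7, 82.7 and 95.7 in UNx libraries, with UNx values on both sides of the Sham ones (difference −3.36, limma adjusted p = 0.560). The Cry2 promoter region (chr2:92433589-92434460) ranked 95.5, 96.3 and 94.4 in Sham and 98.0, 90.6 and 94.9 in UNx libraries (difference −0.93, limma adjusted p = 0.833). Both sets of values overlapped. At Cry1 all 5 tested regions had a lower UNx mean, though each overlapped between groups, and the strongest distal one, in an intron (chr10:85183523-85184025), stood at 53.9 ± 11.9 in Sham and 42.6 ± 3.95 after UNx (SD of 3 libraries, adjusted p of 0.507 with limma). Its difference of −11.3 was −6.51 without Sham 3 and −17.9 without Sham 2.

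Cry2 differed most in an intron 1.52 kb after its start (chr2:92432357-92432784). Ranks there were 43.8, 40.3 and 36.5 in Sham and 60.7, 64.3 and 64.3 in UNx libraries. The groups stood well apart, with means of 40.2 ± 3.63 and 63.1 ± 2.09 (SD, n = 3 each). The difference was 22.9 (SE 7.51, unadjusted p of 0.00685, limma adjusted p = 0.123). A region 4.11 kb before the start (chr2:92437978-92438279) was wholly lower, at 25.9, 34.4 and 37.1 in Sham and 0, 24.1 and 10.7 in UNx libraries (limma adjusted p = 0.314), a difference of −20.9, or −11.6 when ranked by fold enrichment. The strongest distal region of Cry2 (chr2:92407944-92409347), with an E-box within 100 bp of its summit, ranked 82.4 ± 3.55 and 87.6 ± 4.16 and overlapped. The intron window is given for its difference. It held none of the motifs.
Cry2 intron (chr2:92432419-92432619, minus strand): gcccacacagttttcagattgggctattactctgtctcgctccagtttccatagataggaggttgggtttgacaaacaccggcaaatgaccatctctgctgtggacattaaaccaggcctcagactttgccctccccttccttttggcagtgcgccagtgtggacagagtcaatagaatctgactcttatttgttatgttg

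Nr1d1, the haem-binding repressor of the second loop, had a level promoter between regions that differed in both directions. The promoter region (chr11:98774780-98775803), with an E-prime box near its summit, ranked 85.1, 68.1 and 73.6 in Sham and 72.6, 76.9 and 76.4 in UNx libraries (difference −0.27, limma adjusted p = 0.986). Its strongest distal region lay in an intron 1.32 kb after the start (chr11:98773649-98774492) and held a D-box. Ranks there were 87.8, 87.8 and 83.9 in Sham and 82.6, 77.0 and 76.3 in UNx libraries. It was lower in every UNx library, by 7.83 percentile points (difference −7.83, SE 3.30, limma adjusted p = 0.212), and by 19.3 when ranked by fold enrichment (difference −19.3). The intron window is given with the D-box in capitals, read on the strand of the gene.
Nr1d1 intron (chr11:98773917-98774117, minus strand): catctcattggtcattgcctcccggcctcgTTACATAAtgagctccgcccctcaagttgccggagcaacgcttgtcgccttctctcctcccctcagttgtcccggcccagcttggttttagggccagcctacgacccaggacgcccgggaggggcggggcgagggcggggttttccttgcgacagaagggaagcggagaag

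Weaker regions around Nr1d1 stood higher after UNx. The region 10.5 kb before the start (chr11:98785761-98786057), with a CRE near its summit, ranked 19.8, 20.6 and 17.7 in Sham and 45.2, 41.9 and 36.0 in UNx libraries. These ranks did not overlap (difference 21.7, limma adjusted p = 0.262). The authors' fold enrichment there was low, at 2.80, 2.67 and 2.67 in Sham and 3.41, 3.29 and 2.79 in UNx libraries. By that measure UNx 3 lay below Sham 1, so the groups overlapped. The region 1.62 kb before the start (chr11:98776785-98777298) had the largest difference at this gene, 24.6, from 27.2 ± 14.3 to 51.8 ± 14.0 (SD, n = 3 each), and overlapped between groups (limma adjusted p = 0.219). Ranked by fold enrichment this difference was 4.64. An intron of Thra, the thyroid hormone receptor gene that overlaps the 3′ end of Nr1d1, held a region with an E-box (chr11:98750384-98751772) at 28.3, 29.6 and 7.75 in Sham and 50.9, 37.2 and 51.2 in UNx libraries (limma adjusted p = 0.218). It too was higher in all 3 UNx libraries. Of the 13 tested regions in this window 10 had a higher UNx mean, beside 49.9% of all tested regions.

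Dbp, an output gene of the loop with strong rhythms in most tissues, showed small differences. Its main promoter region (chr7:45704699-45705789, summit 130 bp before the start) ranked 61.5, 72.5 and 57.7 in Sham and 73.8, 65.1 and 71.7 in UNx libraries (difference 6.29, limma adjusted p = 0.606). A second promoter region in an intron of Car11 (chr7:45704006-45704511) ranked 57.8 ± 3.82 and 59.3 ± 18.0 (SD, n = 3 each), and another, 808 bp after the start, was among the 77355 strongest intervals in 1 Sham and 1 UNx list (deposited in 2 Sham and 3 UNx lists) and was not tested. Both tested regions overlapped. The strongest distal region (chr7:45712368-45712824, an exon of Sphk2, with an E-box) stood at 59.4 ± 15.2 and 68.2 ± 4.29, and the largest distal difference was −10.4 at chr7:45700813-45701047 (limma adjusted p = 0.512, and −6.05 without Sham 1). The neighbouring Rpl18 promoter, a ribosomal protein gene, was the only region of this window without overlap, at 76.0, 73.0 and 76.6 in Sham and 64.3, 69.3 and 67.7 in UNx libraries (limma adjusted p = 0.394).

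Regions past the threshold appeared only when the window was widened to 50 kb. There 2 of 154 tested regions did, both around Dbp, against 0.788% of all tested regions. With so few regions the count is not set apart from that share. An intergenic region 28.0 kb upstream of Dbp (chr7:45676749-45677496) ranked 41.8, 48.4 and 44.4 in Sham and was in no UNx list among the 77355 strongest intervals. It passed the test narrowly (limma adjusted p = 0.0486). It met the filter of 3 lists only through the Sham lists, where it was high, so this p gives no separate support. The promoter of Sult2b1, a steroid sulfotransferase gene (chr7:45759264-45760107, 49.4 kb beyond Dbp), ranked 82.4, 83.0 and 86.2 in Sham and 97.2, 94.0 and 96.4 in UNx libraries. It rose from 83.9 ± 2.06 to 95.9 ± 1.69 (SD of 3 libraries, adjusted p of 0.0279 with limma), well beyond the spread in either group. Other genes lie nearer to both regions than Dbp does, with Ntn5 6.95 kb from the first.

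Promoters of other clock genes were read the same way. Of 17 such genes, among them Nr1d2, the PAR bZIP genes Tef and Hlf, and the casein kinase genes that phosphorylate PER proteins, all 17 had a tested promoter region and 0 passed the test. Of all tested regions 0.788% passed. The median difference was 0.0228, with 9 of 17 higher in UNx. Groups did not overlap in 2 of the 17 genes, beside 20.8% of all tested promoter regions. Among these was Csnk1d, a casein kinase gene, higher in UNx at 61.5 ± 2.43 and 68.2 ± 3.95 (limma adjusted p = 0.572).

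Output genes with known rhythms also gave 0 of 11 past the threshold, against 0.788% of all tested regions. Their median difference was −0.411. Their promoter groups did not overlap in 5 of 11 genes, 2 higher and 3 lower in UNx, beside 20.8% of all tested promoter regions. Lpin1, a phosphatidate phosphatase gene, ranked 69.3, 73.5 and 63.4 in Sham and 50.1, 38.5 and 58.2 in UNx libraries. It was lower in each UNx library (difference −19.8, limma adjusted p = 0.151). Scnn1a, the alpha subunit of the epithelial sodium channel, ranked 10.5, 11.5 and 0 in Sham and 39.2, 21.6 and 32.2 in UNx libraries, higher in each (limma adjusted p = 0.228). Usp2, a ubiquitin protease gene, stood at 98.4 ± 1.07 and 94.6 ± 1.89 (SD of 3 libraries, adjusted p of 0.181 with limma). Nampt was the other higher promoter and Sgk1 the other lower one.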

How the data were processed

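ATAC-seq peak lists of 6 libraries, 1 list each (3 Sham, 3 UNx), were analysed. Per the submitters' processing notes, the tools were cutadapt 3.4, Bowtie, SAMtools, Picard and MACS2 2.2.7.1 with the build mm10; the filter applied to the lists is not given in the sources used here. Peaks were called per library, without pooling. Each deposited summit has a position, the authors' fold enrichment (the ratio of its signal to the background of the caller), −log10 values of p and q, and a display score, the whole part of 10 times the −log10 q. They grow with depth, which is unknown, so no interval that needs depth is given.

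An interval with its strongest summit was taken as 1 peak, on chromosomes 1 to 19, X and Y. Each list was cut to its 77355 strongest peaks by −log10 q, the length of the shortest list, and ranked from 0 to 100. Merging intervals that shared 1 bp or more gave 99359 regions. The 74781 regions in at least 3 lists were fitted with limma 3.58.1 in R 4.3.3 (two-sided, robust variance with a trend, threshold 0.05 after Benjamini-Hochberg adjustment), and single values were compared by exact permutation tests. Genes came from GENCODE release M21 (basic annotation, GRCm38). In simulated ranks for UNx against Sham over 74781 regions, 0 regions were called with no change. With 200 changed regions, 0%, 42% and 78% were recovered at shifts of 1, 2 and 4 on the normal score scale.

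The members and lists were chosen with earlier results of these data known. Named with values were, for every gene, its promoter regions in 3 or more lists, its strongest distal region, its distal region of largest difference, regions found in all 3 lists of 1 group only, and regions past the threshold. Other regions without overlap between groups, and the genes named in the other lists, were chosen after their values were seen. The values of 1 gene of the other lists are not reported here. Alternatives were other list lengths, a minimum −log10 q of 5, ranking by fold enrichment, a 50% reciprocal overlap, normal scores, no filter, another variance model, GC-corrected ranks, other flanks and promoter windows, the replicate block and leaving out each library. Single summits were added after the data were seen.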

Additional observations from a re-analysis of the deposited data

How the results depend on the processing

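The count of 0 clock regions past the limma threshold was kept under all alternatives but a flank of 50 kb. That flank gave 2 of 154 tested (both around Dbp), against 0.788% of all tested regions. With the replicate number as a block it was 0, with a smallest adjusted p of 0.114, and with GC-corrected ranks as well 0.160; same-numbered libraries did not pair (correlations of their deviations 0.00819, −0.10 and −0.0496). Over the other alternatives with the 20 kb flank the smallest adjusted p ran from 0.0516 (normal scores) to 0.196 (without UNx 1). The count over all tested regions was far less stable: 589 became 22 with all deposited peaks, 2 with the 20000 strongest peaks, 3 with fold enrichment, 143 with a 50% reciprocal overlap, 1583 with normal scores, 2 with no filter, 2 with GC-corrected ranks, 55 with the replicate block and 0 with the block and GC-corrected ranks, and 30 to 379 when 1 library was left out (the lowest without Sham 3, the highest without UNx 2). The count of 19 clock regions without overlap became 3 with the 20000 strongest peaks (27 tested), 35 with the 50 kb flank (154 tested) and 24 to 34 with 1 library fewer, where overlap is easier to avoid. The promoter median of 1.49 became 3.21 with all deposited peaks, −5.63 with the 20000 strongest and −2.87 with fold enrichment. The distal median of 4.28 became 5.70 with all deposited peaks (all distal regions 2.70), 7.60 with the 20000 strongest, −1.29 with fold enrichment, 2.91 with a −log10 q of at least 5, 3.03 with the 50 kb flank and 2.26 to 3.89 with 1 library fewer. The difference in clock regions per list reversed to −0.333 with fold enrichment; the cause was not tested. Of 458 values of 25 named differences under alternatives, 3 reversed: the second Per1 start (−0.55 with fold enrichment), the region over the Npas2 start (−4.38 with a 50% overlap, which splits it and reads the piece at the start, not the upstream summit) and the Per3 intron region (−5.07 to 14.6 with 1 library fewer, the lowest without Sham 1). Many of these values could not reverse, so the count does not measure stability. No filter, another variance model and the replicate block leave each difference as it was. A difference without overlap keeps its sign when 1 library is left out. Named regions not tested under an alternative gave no value there, such as the region upstream of Clock with fold enrichment.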
